A study of Mus musculus with 6 samples.

Results

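The *Foxo* transcription factors and the insulin/IGF genes that act upstream of them were examined in cochlear tissues of *Cmah*-null mice. The 10 genes were *Foxo1*, *Foxo3*, *Foxo4*, *Igf1*, *Igf2*, *Igf1r*, *Insr*, *Irs1*, *Irs2* and *Akt2*. They were taken by gene symbol from an Illumina MouseRef-8 v2 array that carries 18138 symbols, and 12 of its 25697 probes read them. *Igf1* and *Akt2* had 2 probes each and the other genes had 1. The study compared 3 wild type (WT) with 3 *Cmah*-null mice of the strain C57BL/6, both groups aged 12 months and without any other treatment in the sample records, with 1 array of total RNA per sample. *Cmah* encodes the hydroxylase that makes the sialic acid Neu5Gc, and the null allele was a knockout present in the whole animal, so no group was limited to a cell type. The question the arrays address for these genes is whether loss of *Cmah*, which the study connects with hearing loss of old age, goes with a different expression of the signalling chain from growth factor to *Foxo*.

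Insulin and the insulin-like growth factors bind receptor tyrosine kinases, which recruit the insulin receptor substrates and through them phosphatidylinositol 3-kinase (PI3K) and Akt. Active Akt phosphorylates the Foxo factors, which then leave the nucleus, so signalling from the receptors holds Foxo target genes down and low signalling releases them. Akt acts on the Foxo proteins, and mRNA levels of the kind measured here do not show that step. In the inner ear the pathway is known for IGF-1, whose loss leads to deafness in mice and in people.

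The array measures each gene through a probe of 50 bases. The start of the probes that the results below turn on is shown, because a level or its absence on the array is that of these stretches of the transcript. Each is given 5′ to 3′ over its first 30 bases, and the capitals in the pair for *Akt2* mark the bases that both printed stretches share.
*Foxo1* ILMN_2656498: aggaggtgtctctcccttcagaagctgtca
*Foxo3* ILMN_2690574: gcccgagagtcccctcgtcgcggtgccctg
*Igf1* ILMN_1225565: aagcctacaaaagcagcccgctctatccgt
*Igf2* ILMN_2597769: ccagcagtggccccaggtgtttgcctcaac
*Irs2* ILMN_3144164: ccaggcactggagctttgccctctgccagc
*Akt2* ILMN_1255147: cgcgtCCGCTGAAAGGAGACTGTAAAAAGT
*Akt2* ILMN_2655895: CCGCTGAAAGGAGACTGTAAAAAGTggctc
The file places the *Foxo1* probe at base 4601 of its transcript and the *Foxo3* probe at base 133, where 74% of the probe's bases are G or C. The pair for *Akt2* starts at bases 14 and 20 and overlaps by 45 of the 50 bases, so it reads nearly the same stretch and is not a pair of separate measurements. The file names no genome build for its probe coordinates, and only chromosomes are given here, which were 3 for *Foxo1*, 10 for *Foxo3* and *Igf1*, X for *Foxo4*, 7 for *Igf2*, *Igf1r* and *Akt2*, 8 for *Insr* and *Irs2*, and 1 for *Irs1*.

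Between 13873 and 15223 probes were detected on an array, that is, had a detection p under 0.05 against the negative controls of that array. *Cmah*-null replicate 3 stood apart, with an SD of the log2 difference to the other arrays of 0.56 to 0.64, and *Cmah*-null replicates 1 and 2 lay closer together (0.13) than any other pair (0.31 or more). Results are therefore also given without replicate 3 and with replicates 1 and 2 averaged to 1 sample. The study's methods count mice per group, and that count equals the number of arrays, but the sample records name no animal for an array, so the p-values measure the spread between these samples. The probe for *Cmah* (ILMN_2606825), near background at log2 signals of 7.27, 7.28 and 7.87 in WT and 7.95, 7.98 and 7.27 in *Cmah*-null samples, was detected on 1 WT and 2 *Cmah*-null arrays and does not check the genotype. Of 9 hair cell markers, *Slc26a5*, *Pou4f3* and *Atoh1* were detected on no array and 4 were detected on the 6 arrays. All 11 skeletal muscle markers were detected on the 6 arrays.

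Of the 12 probes, 5 were detected on the 6 arrays, 1 each for *Foxo1*, *Igf1*, *Igf2*, *Igf1r* and *Irs2*. Another 5 were detected on no array, and 2 on some arrays only. The signal of *Foxo1* was 1.76-fold higher in *Cmah*-null than in WT samples, that of *Igf2* 1.42-fold and that of *Irs2* 1.35-fold, while *Igf1* and *Igf1r* were lower by less than their standard errors. None of the 12 probes passed an adjusted p of 0.05 in limma, nor did any probe of the array (0.0% of 25697). At an unadjusted p under 0.05, 1 member probe was higher in *Cmah*-null samples, that of *Foxo1*, where 4.77% of all probes were, and 0 were lower, where 3.78% were. Every *Cmah*-null value lay above every WT value in 2 member probes, *Foxo1* and *Igf2*, against 9.11% of all probes, and below in 1, against 7.33%. That 1 was *Foxo3*, which was detected on no array.

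**Figure D1:**
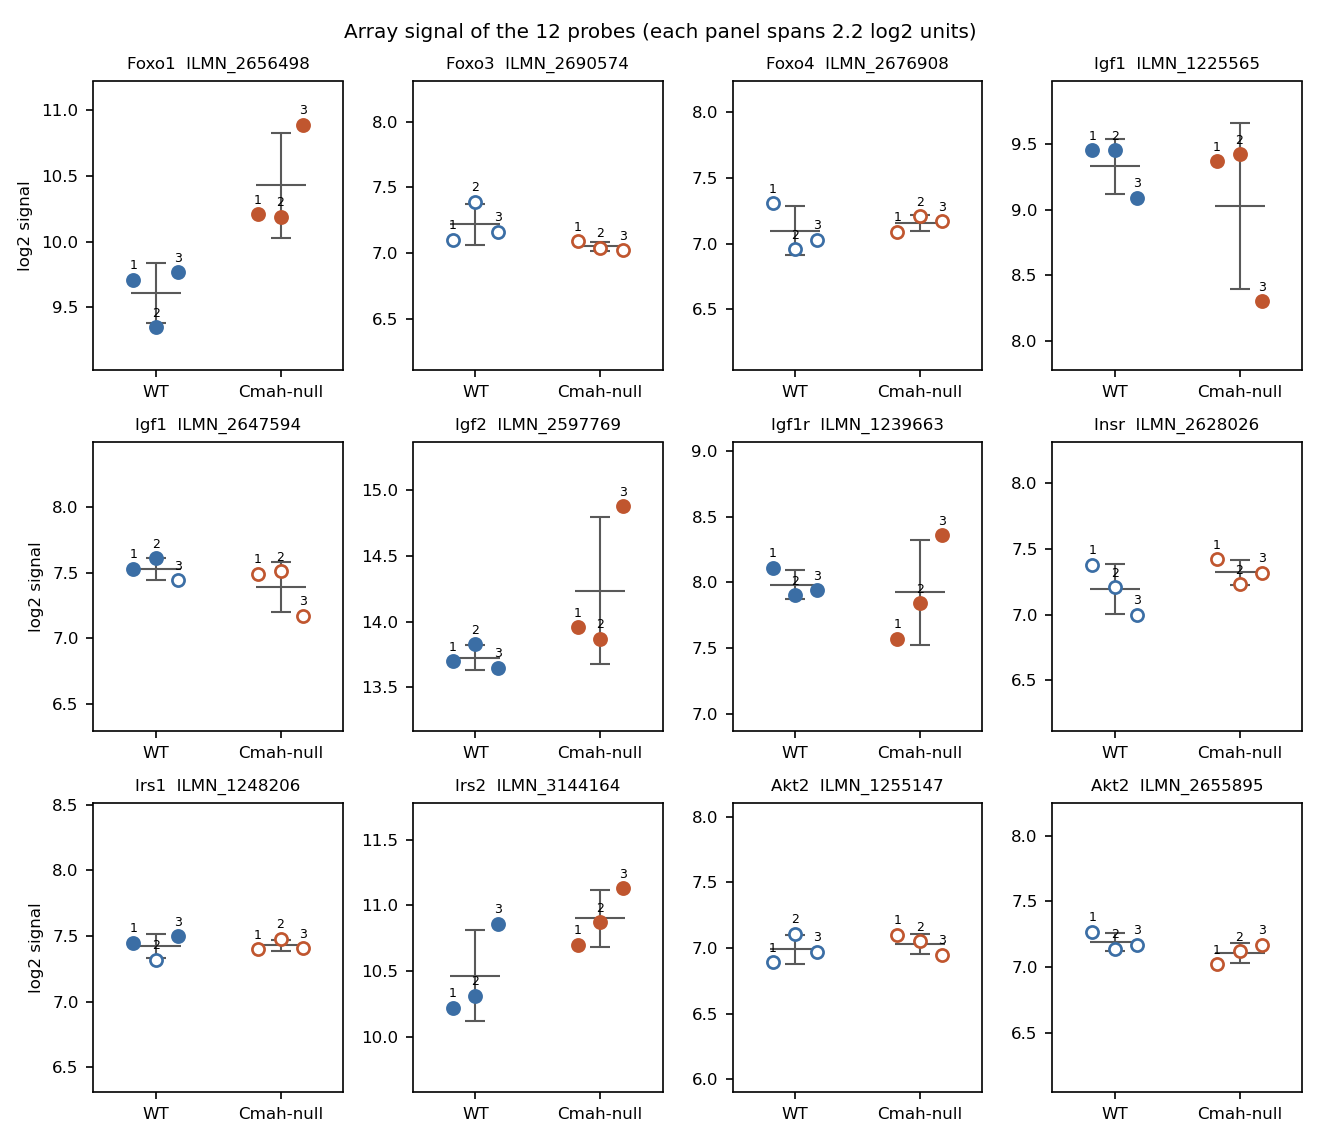
Log2 signal (vertical axis) of the 12 probes in WT (blue) and *Cmah*-null samples (orange), with replicate numbers above the points and the mean ± SD as grey bars. Filled points were detected on that array and open points were not. *Foxo1* and *Igf2* have all *Cmah*-null points above all WT points, and *Foxo3*, *Foxo4*, *Insr* and *Akt2* have open points only.

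*Foxo1* encodes a forkhead factor that drives genes of gluconeogenesis, cell cycle arrest and atrophy. Its log2 signal was 9.71, 9.35 and 9.77 in WT and 10.21, 10.19 and 10.89 in *Cmah*-null samples. The groups did not overlap, with 0.42 between the highest WT and the lowest *Cmah*-null value, and *Cmah*-null replicate 3 was the highest. Before normalization its signal was 900, 549 and 667 in WT and 1662, 1532 and 1669 in *Cmah*-null samples. The log2 difference was 0.82 (standard error 0.23, 95% confidence interval 0.26 to 1.38), with an unadjusted p of 0.012 and an adjusted p of 0.479 in limma. By unadjusted p its rank among all probes was 650. Leaving out *Cmah*-null replicate 3 gave a difference of 0.59, and averaging the other 2 gave 0.93. The arrays also fell into a set with fewer beads per probe (WT replicate 1, *Cmah*-null replicates 1 and 2, medians 32 to 34) and a set with more (the others, medians 38 and 39). The difference was 0.49 in the first, which held 1 WT array, and 1.33 in the second, which held 1 *Cmah*-null array. For every gene, a difference within a set thus rests on a single array of 1 group. With these sets as a block the log2 difference of *Foxo1* was 0.91 (adjusted p 0.164 in limma). The study reports lower *Foxo1* mRNA in *Cmah*-null cochlear tissues by quantitative PCR after reverse transcription (RT-qPCR), the opposite direction to this probe. By RT-qPCR it also reports lower *Sirt3* and *MnSod* (*Sod2*), the direction of their probes below. The cause of the difference for *Foxo1* was not tested.

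The other Foxo factors gave no level. *Foxo3*, a factor tied to stress resistance and lifespan, had log2 signals of 7.10, 7.39 and 7.16 in WT and 7.09, 7.04 and 7.02 in *Cmah*-null samples, with detection p between 0.096 and 0.873. *Foxo4* lay between 6.96 and 7.31 with detection p of 0.159 or more. These values are at the level of the negative controls, so no fold is given. The study reports lower *Foxo3a* (*Foxo3*) mRNA by RT-qPCR, which an undetected probe cannot check. *Foxo6*, the remaining factor of the family, was not detected on all arrays of either group, and *Foxo1* was thus the only Foxo factor measured.

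*Igf2*, the ligand that is abundant before birth and stays on in the choroid plexus and the meninges of adults, had log2 signals of 13.70, 13.83 and 13.65 in WT and 13.96, 13.87 and 14.88 in *Cmah*-null samples. The groups were separated by only 0.04, and *Cmah*-null replicate 3 was 0.97 above the mean of the other 2. The log2 difference was 0.51 (standard error 0.28, interval -0.18 to 1.19, adjusted p 0.670 in limma), and it was 0.18 without that replicate and 0.67 with the other 2 averaged. Marker genes of the meninges were higher in the same samples. All 5 were detected on the 6 arrays, 4 of 5 had an unadjusted p under 0.05 in limma, and their summed signal was 4266 to 4497 in WT and 6962 to 11057 in *Cmah*-null samples, with the highest value on replicate 3. Of 7 choroid plexus markers, none was undetected throughout and 6 were higher at that threshold. Their summed signal on replicates 1 to 3 was 23890, 45885 and 6042 in WT and 58167, 51337 and 45554 in *Cmah*-null samples. Among *Cmah*-null samples it was thus lowest on replicate 3, where *Igf2* was highest. The part of the meningeal and choroid plexus markers in the value of *Igf2* was not tested. In bulk tissue, more cells of a type and more RNA per cell cannot be told apart.

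*Igf1*, the ligand through which growth hormone acts, showed no such separation. Its probe ILMN_1225565 read 9.45, 9.45 and 9.09 in WT and 9.37, 9.42 and 8.30 in *Cmah*-null samples, so that 2 of the 3 *Cmah*-null values lay within the WT range and replicate 3 lay 1.10 below the mean of its group's other 2. The log2 difference was -0.30 (standard error 0.33, interval -1.10 to 0.50, adjusted p 0.816 in limma), and it was 0.07 without replicate 3. The second probe, ILMN_2647594, was detected on 2 WT arrays and on no *Cmah*-null array. Its WT mean of 7.53 equalled the detection limit of the *Cmah*-null arrays on this scale (7.53), so it gives no fold.

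Of the receptors, *Igf1r*, which binds both IGFs and signals through PI3K, had log2 signals of 8.11, 7.90 and 7.94 in WT and 7.57, 7.84 and 8.36 in *Cmah*-null samples. The *Cmah*-null values lay on both sides of the WT values. The log2 difference was -0.06 (standard error 0.21, interval -0.58 to 0.46, adjusted p 0.955 in limma), with -0.41 in the arrays with fewer beads and 0.45 in those with more, and it was 0.05 with *Cmah*-null replicates 1 and 2 averaged. *Insr*, the insulin receptor, was detected on no array (log2 signals 7.0 to 7.42, detection p 0.084 or more). *Igf2r*, which carries IGF-2 to lysosomes for breakdown, was not a member and had a log2 difference of 0.24 (standard error 0.21, adjusted p 0.778 in limma), which was 0.01 without *Cmah*-null replicate 3.

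*Irs2*, a docking protein between receptor and PI3K and itself a known Foxo target, had log2 signals of 10.22, 10.31 and 10.86 in WT and 10.70, 10.87 and 11.13 in *Cmah*-null samples. WT replicate 3 lay among the *Cmah*-null values, and the other 2 WT values lay below all of them. The log2 difference was 0.43 (standard error 0.21, interval -0.07 to 0.94, adjusted p 0.627 in limma), and 0.32 without *Cmah*-null replicate 3. It was 0.56 in the arrays with fewer beads and 0.54 in those with more, each resting on 1 array of a group. Without WT replicate 3 it was 0.63, and *Irs2* then joined *Foxo1* as the 2 member probes higher at an unadjusted p under 0.05. *Irs1*, the related docking protein, was detected on WT replicates 1 and 3 only, with 7.45, 7.32 and 7.50 in WT and 7.40, 7.48 and 7.41 in *Cmah*-null samples, which gives no fold. *Akt2*, the Akt kinase best known for glucose uptake in muscle and fat, was detected on no array by either probe (detection p 0.218 or more).

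**Figure D2:**
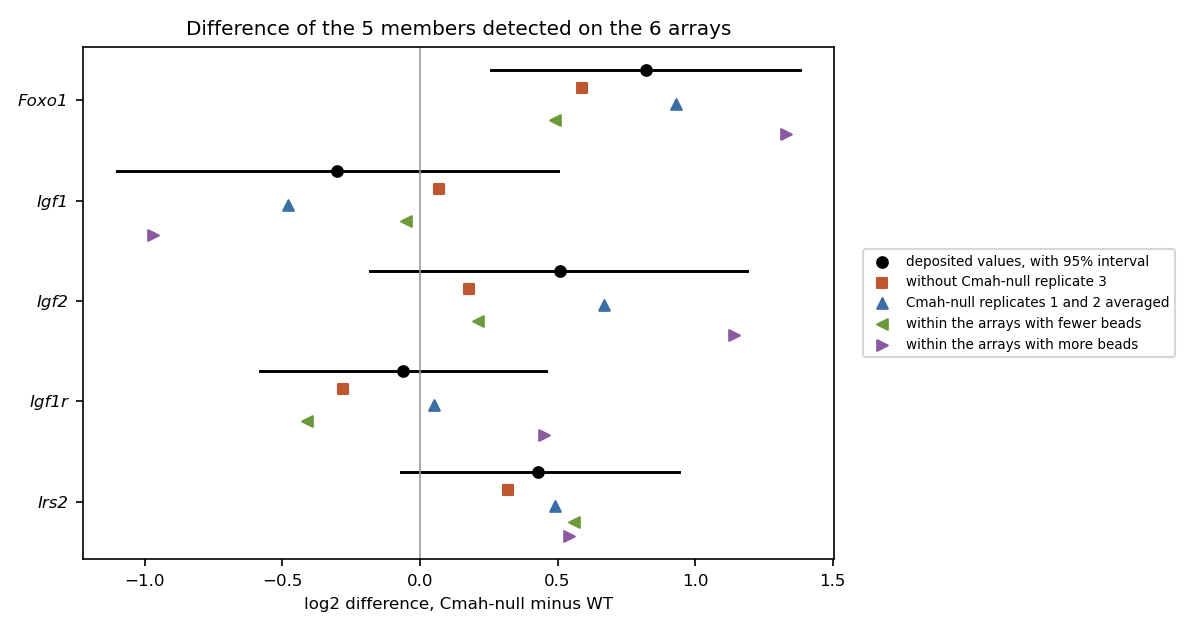
Log2 difference, *Cmah*-null minus WT (horizontal axis), of the 5 genes detected on the 6 arrays. Black points and lines are the values with their 95% confidence interval, and coloured marks are the values without *Cmah*-null replicate 3, with *Cmah*-null replicates 1 and 2 averaged, and within the arrays with fewer or more beads. All marks of *Foxo1*, *Igf2* and *Irs2* lie above 0, and the interval lies above 0 for *Foxo1* only (0.26 to 1.38). The marks of a gene share arrays, and those within a bead set rest on 1 array of a group.

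The deposited values rest on quantile normalization, which gives all arrays the same distribution. When the arrays were instead scaled to the same median, the median log2 difference of 10881 detected genes moved from 0.04 to 0.30, and members are best read against it. *Foxo1* stood 0.78 above that median with quantile normalization and 0.90 with median scaling, *Igf2* 0.47 and 0.68, and *Irs2* 0.40 and 0.59. *Igf1* stood at -0.34 and -0.27 and *Igf1r* at -0.09 and -0.39, both below the median either way, although the log2 difference of *Igf1* itself was 0.03 with median scaling.

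The chain around the members was described with 11 lists that hold 102 genes, the members included. Each gene was read by its brightest probe. On the array were 99 of them, and 75 were detected on all arrays of at least 1 group. Of these 75, 7 were higher and 7 lower at an unadjusted p under 0.05 in limma, 9.33% each way, where 8.38% of all detected genes were higher and 5.36% lower. None had an adjusted p under 0.05, and the smallest was 0.365. The groups did not overlap in 11 of the 75 upwards and 8 downwards, against 12.1% and 7.8% of all detected genes. The median log2 difference was -0.02, beside 0.04 over all detected genes. The split between higher and lower moved with the scaling. With arrays scaled to the same median, 26 of the 75 were higher (34.7%) and 0 lower, where 26.3% and 0.947% of all detected genes were. Without *Cmah*-null replicate 3, 9 were higher (12.0%) and 14 lower (18.7%), where 12.9% and 8.85% of all detected genes were, and without WT replicate 1 or WT replicate 2 the number higher was 4.

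**Figure D3:**
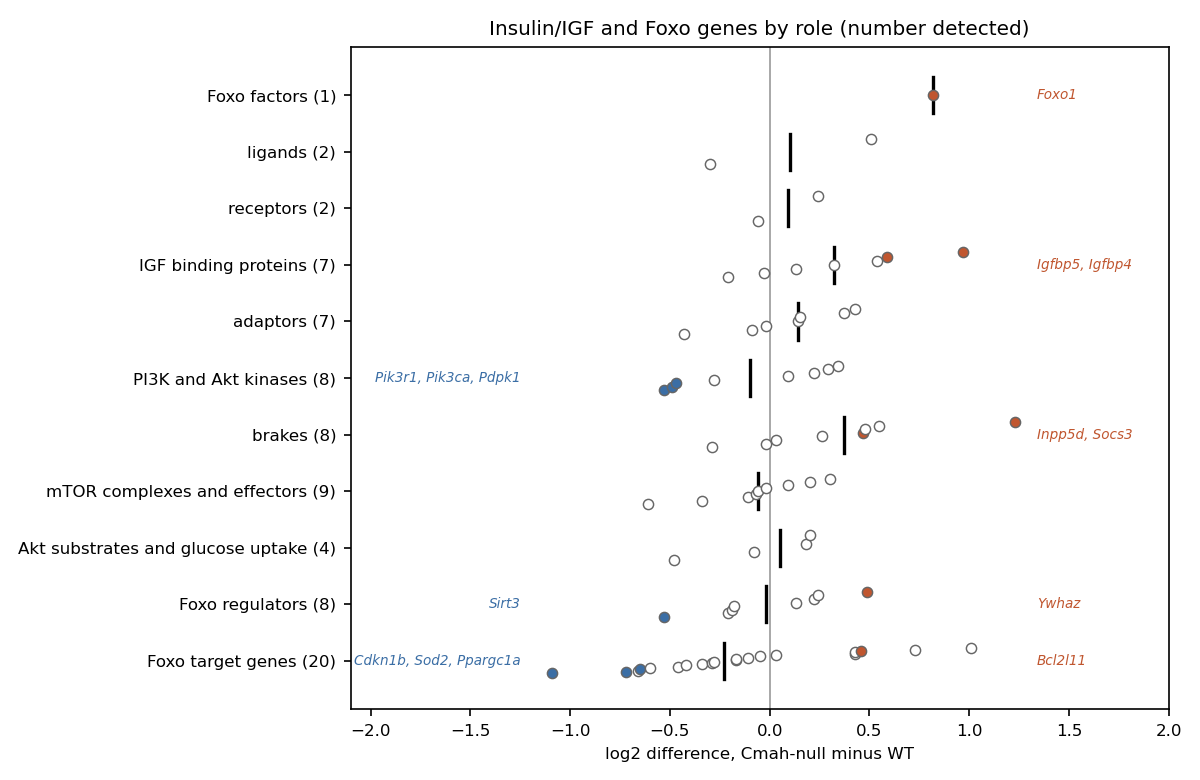
Log2 difference, *Cmah*-null minus WT (horizontal axis), of each detected gene in the 11 lists, with the number detected in brackets and the list median as a black line. Filled points had an unadjusted p under 0.05 in limma and are named at the left (lower, blue) or right (higher, orange). List medians run from -0.23 for the Foxo targets to 0.37 for the brakes, apart from the Foxo factors, of which *Foxo1* alone was detected (0.82).

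The IGF binding proteins hold the IGFs in the extracellular space. Of 8 such genes 7 were detected, of which 2 were higher and 0 lower at an unadjusted p under 0.05, where 8.38% and 5.36% of all detected genes were. *Igfbp4* had log2 signals of 12.67, 13.14 and 13.51 in WT and 13.78, 13.76 and 14.70 in *Cmah*-null samples, a difference of 0.97 (standard error 0.33, with an adjusted p of 0.546). *Igfbp5* had 14.19, 14.38 and 14.65 against 14.80, 14.83 and 15.37, a difference of 0.59 (standard error 0.20, with the same adjusted p). Neither gene's groups overlapped, and *Cmah*-null replicate 3 was the highest in both. Without it the differences were 0.66 and 0.40. The list median was 0.32, and 0.27 without that replicate. The summed signal of the meningeal markers given with *Igf2* was also higher in *Cmah*-null samples and highest on replicate 3. Within WT that sum was nearly flat (4266 to 4497), while *Igfbp4* ran from 12.67 to 13.51. The part of these markers was not tested.

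PI3K is made of a catalytic and a regulatory subunit, and PDK1 activates Akt beside it. *Pik3r1*, the gene of the regulatory subunit p85 alpha, had log2 signals of 12.82, 12.99 and 12.93 in WT and 12.32, 12.42 and 12.40 in *Cmah*-null samples. All 3 *Cmah*-null values lay below all WT values, and the spread within each group was 0.09 and 0.05 (SD). The difference was -0.53 (standard error 0.08, adjusted p 0.365 in limma), and it was -0.54 without *Cmah*-null replicate 3. *Pdpk1*, the gene of PDK1, had a difference of -0.47 (standard error 0.13, adjusted p 0.470 in limma) with groups that did not overlap. *Pik3ca*, the catalytic subunit p110 alpha, had -0.49 (standard error 0.20, adjusted p 0.580 in limma), or -0.31 without WT replicate 2, and its groups overlapped. The other 5 detected genes of this list had differences between -0.28 and 0.34, and *Akt1* and *Akt2* were not detected. With median scaling *Pik3r1* and *Pdpk1* had differences of -0.03 and -0.04, which is 0.33 and 0.34 below the median of all detected genes.

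The list of brakes holds phosphatases and other proteins that end the signal. *Socs3*, an inhibitor of cytokine and insulin receptors, had log2 signals of 9.0, 8.86 and 9.12 in WT and 9.85, 9.88 and 10.95 in *Cmah*-null samples. Its groups did not overlap and the WT values had an SD of 0.13, with a difference of 1.23 (standard error 0.31, adjusted p 0.449 in limma), or 0.87 without *Cmah*-null replicate 3. *Inpp5d*, the lipid phosphatase SHIP1 of blood cells, had a difference of 0.47 (standard error 0.16, adjusted p 0.545), or 0.30 without that replicate. Macrophage markers, all 6 of them detected on the 6 arrays, had a summed signal of 3703 to 5283 in WT samples. In *Cmah*-null samples it was 6185 and 6945 on replicates 1 and 2, above the WT range, and 3978 on replicate 3. Of these markers 1 was higher at an unadjusted p under 0.05 in limma (*Cd68*, 0.39) and 0 were lower. Marrow neutrophil markers, all 7 detected, had a summed signal of 79642 to 107545 in WT and 81038 to 94745 in *Cmah*-null samples. The groups of both lists overlapped, and their part in *Inpp5d* or *Socs3* was not tested. *Ptpn1*, the phosphatase that acts on the insulin receptor, read 11.76 on *Cmah*-null replicate 3 and 9.14 to 10.11 on the other 5 arrays. Its difference of 0.55 (standard error 0.66) became -0.19 without that array. The list median of 0.37 became -0.05 without *Cmah*-null replicate 3.

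Adaptors, mTOR genes and Akt substrates held no gene with an unadjusted p under 0.05. Among the 7 detected adaptors, *Irs2* (0.43) and *Grb14* (-0.43, standard error 0.24), an inhibitor of the insulin receptor, had the largest differences, and that of *Grb14* was -0.71 without *Cmah*-null replicate 3. Among 9 detected mTOR genes these were *Deptor*, an mTOR inhibitor listed on the array as *Depdc6* (-0.61, standard error 0.29, with groups that did not overlap), and *Eif4ebp1*, a translation repressor (-0.34, standard error 0.20). The difference of *Deptor* was -0.32 without WT replicate 1, which read 10.96 against 10.11 and 10.04 on the other WT arrays, and -0.22 with median scaling, which is 0.52 below the median of all detected genes. That of *Eif4ebp1* was -0.15 without WT replicate 3 and turned to 0.15 with median scaling, where it lay 0.15 below that median. Among 4 detected Akt substrates and glucose uptake genes they were *Slc2a4*, the insulin-responsive glucose transporter (-0.48, standard error 0.43), and *Tbc1d1* (0.20, standard error 0.15). *Slc2a4* ranged from 8.55 to 10.13 within WT, wider than the difference between the groups, which was -0.10 without WT replicate 1. That of *Tbc1d1* was 0.04 without *Cmah*-null replicate 3.

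Foxo regulators change the location or activity of the factors. *Ywhaz*, a 14-3-3 protein of the kind that binds phosphorylated Foxo, had log2 signals of 13.55, 13.32 and 13.46 in WT and 13.88, 13.91 and 14.02 in *Cmah*-null samples. The groups did not overlap, and the difference was 0.49 (standard error 0.09, adjusted p 0.397 in limma), or 0.45 without *Cmah*-null replicate 3. *Sirt3*, the mitochondrial deacetylase, read 11.75, 11.70 and 11.52 in WT and 11.20, 11.12 and 11.07 in *Cmah*-null samples. All *Cmah*-null values lay below all WT values, and the log2 difference of -0.53 (standard error 0.09, adjusted p 0.396 in limma) was -0.59 in the arrays with fewer beads and -0.54 in those with more. With median scaling it was -0.03, which is 0.33 below the median of all detected genes. *Sirt1*, which deacetylates Foxo in the nucleus, had 0.22 (standard error 0.15) with overlapping groups. The other 5 detected regulators lay between -0.21 and 0.24.

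Foxo target genes were the largest list, with 20 detected of 28. Of these 20, 1 was higher and 3 lower at an unadjusted p under 0.05 in limma, where 8.38% of all detected genes were higher and 5.36% lower, and 6 had a positive and 14 a negative difference. The median was -0.23, and -0.21 without *Cmah*-null replicate 3, beside 0.04 over all detected genes both times. With median scaling it turned to 0.14, beside 0.30 over all detected genes. *Cdkn1b*, the cell cycle inhibitor p27, had log2 signals of 9.46, 9.51 and 9.60 in WT and 8.61, 8.98 and 7.72 in *Cmah*-null samples, a difference of -1.09 (standard error 0.32, adjusted p 0.490 in limma). That difference was -0.73 without *Cmah*-null replicate 3. With median scaling it was -0.75, which is 1.06 below the median of all detected genes. *Sod2*, the superoxide dismutase of mitochondria, had 13.91, 13.52 and 13.12 against 12.97, 12.90 and 12.53. Its log2 difference of -0.72 (standard error 0.23, adjusted p 0.529 in limma) was -0.98 in the arrays with fewer beads and -0.79 in those with more, and with median scaling -0.22, which is 0.52 below the median of all detected genes. *Ppargc1a*, a coactivator of mitochondrial genes, had a difference of -0.65 (standard error 0.26, adjusted p 0.580), or -0.37 without *Cmah*-null replicate 3 and -0.19 with median scaling. In all 3 the groups did not overlap, and *Cmah*-null replicate 3 was the lowest. *Bcl2l11*, the death protein Bim, was higher, with 8.96, 9.02 and 9.13 in WT and 9.33, 9.27 and 9.88 in *Cmah*-null samples, a difference of 0.46 (standard error 0.18, adjusted p 0.579 in limma), or 0.26 without *Cmah*-null replicate 3. *Klf2*, a factor of quiescent cells, had 10.07, 10.19 and 10.54 against 10.73, 10.66 and 12.42. Its groups did not overlap, and the difference of 1.01 (standard error 0.50, adjusted p 0.638 in limma) was 0.43 without *Cmah*-null replicate 3. Of the atrophy and fasting genes, *Fbxo32* had a difference of -0.29 (standard error 0.25) and *Pdk4* of -0.66 (standard error 0.52), with overlapping groups, while *Trim63* was not detected.

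**Figure D4:**
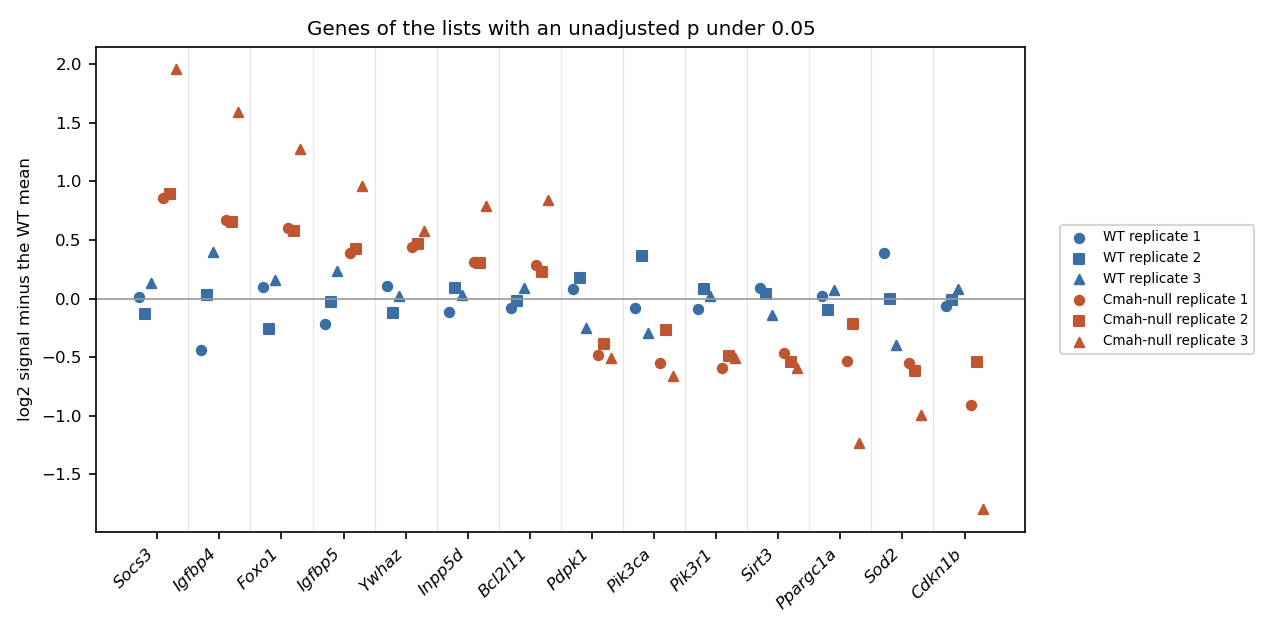
Log2 signal minus the WT mean of the gene (vertical axis) for the 14 genes of the lists with an unadjusted p under 0.05, by array, with WT in blue and *Cmah*-null in orange and the marker shape giving the replicate. *Cmah*-null replicates 1 and 2 lie close together in nearly all genes. Of the *Cmah*-null samples, replicate 3 lies farthest from the WT mean in every gene except *Pik3r1*.

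Several of these targets are also abundant in fat and muscle. Brown fat markers were lower in *Cmah*-null samples, 2 of 3 at an unadjusted p under 0.05 in limma, with a summed signal of 9489 to 23268 in WT and 2119 to 4544 in *Cmah*-null samples and the lowest value on replicate 3. None of the 3 was undetected throughout. The summed signal of the 7 fat markers was 26700 to 57609 in WT and 17959 to 51130 in *Cmah*-null samples, and that of the 11 skeletal muscle markers 230478 to 391724 and 249319 to 287407, so both overlapped. The 5 endothelial markers, given because *Klf2* is also an endothelial gene, were detected on the 6 arrays, with 1 lower at that threshold (*Tek*, -0.45), and summed to 4879 to 5202 in WT and 3331 to 3954 in *Cmah*-null samples. They did not move together, since *Emcn* had a difference of -0.65 and *Cdh5* of 0.04. On *Cmah*-null replicate 3, the array on which *Klf2* was highest, *Cdh5* (9.50) and *Kdr* (7.68) were at their highest. *Emcn* (10.06), *Pecam1* (8.99) and the summed signal (3331) were at their lowest there, and *Tek* (9.69) was at neither end. The part of the endothelial markers in the value of *Klf2* was not tested. The part of brown fat, fat and muscle in the values of *Sod2*, *Ppargc1a*, *Slc2a4* and *Pdk4* was not tested.

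**Figure D5:**
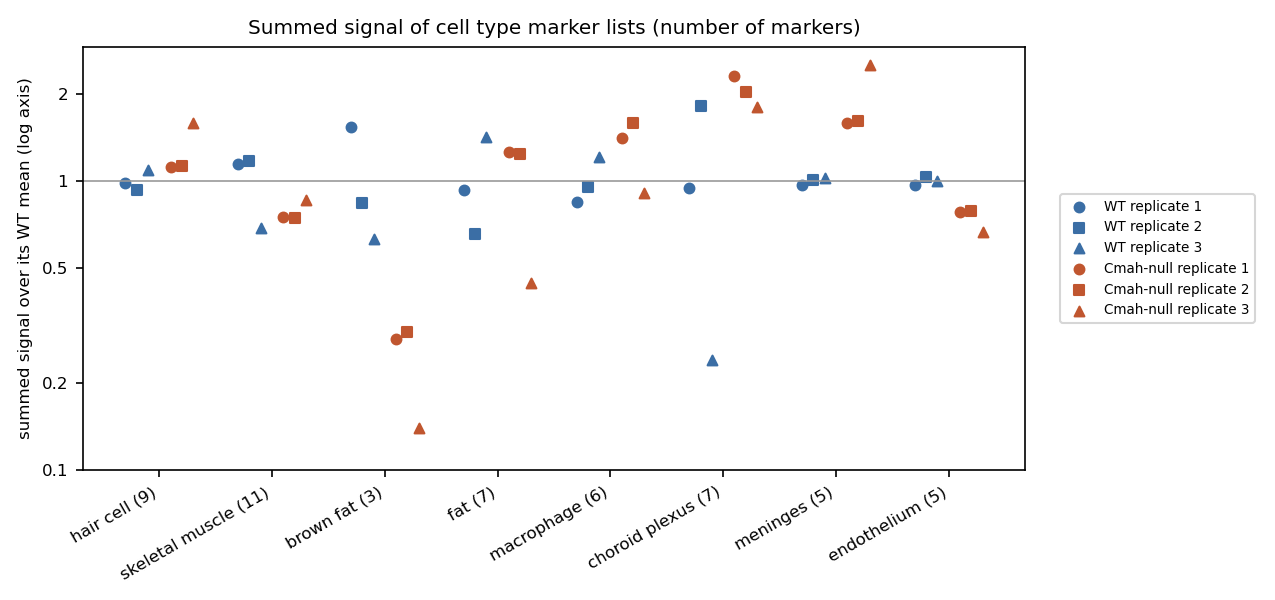
Summed signal of 8 cell type marker lists over the mean of the 3 WT arrays (log axis), by array, with WT in blue and *Cmah*-null in orange and the number of markers in brackets. The meningeal and hair cell lists lie above all WT arrays, and the brown fat and endothelial lists below them, on all *Cmah*-null arrays. The hair cell sums were 2709 to 3198 in WT and 3254 to 4625 in *Cmah*-null samples, and 4 of the 9 hair cell markers were detected on the 6 arrays. The brightest of them, *Espn*, weighs most in that sum, and its groups overlapped (10.20 to 10.72 in WT, 10.48 to 11.56 in *Cmah*-null samples). At an unadjusted p under 0.05 in limma 1 of the 9 was higher and 0 were lower. Their median log2 difference was 0.09, so the sum does not stand for the list.

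Foxo factors bind the forkhead motif GTAAACA, and its letters were searched on both strands (GTAAACA or TGTTTAC) in RefSeq promoter windows from 250 bases before to 50 after each transcription start, in the build GRCm38.p6. Of all 27025 gene symbols with such a window, 4.05% held the motif. Of the 8 members with a window, 0 held it, and *Foxo4* and *Insr* had no window. Of 26 Foxo target genes with a window, 4 held it (15.4%), namely *Bcl2l11*, *Txnip*, *Trim63* and *Sesn1*. The windows of *Bcl2l11* and *Txnip* are shown because they hold the motif upstream of the start site in genes that were detected. *Bcl2l11* was the only target gene higher at an unadjusted p under 0.05, and *Txnip*, an inhibitor of glucose uptake, had a difference of -0.28 (standard error 0.20). The windows lie on the plus strand at chr2:128125788-128126087, which is 1 of 2 for *Bcl2l11*, and at chr3:96557707-96558006, and capitals mark the motif.
*Bcl2l11*: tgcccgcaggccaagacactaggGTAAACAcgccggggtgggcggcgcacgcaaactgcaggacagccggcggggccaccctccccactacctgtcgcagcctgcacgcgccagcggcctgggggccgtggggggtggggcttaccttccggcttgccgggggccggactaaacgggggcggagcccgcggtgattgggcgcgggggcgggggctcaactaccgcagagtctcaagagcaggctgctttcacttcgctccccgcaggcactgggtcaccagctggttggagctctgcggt
*Txnip*: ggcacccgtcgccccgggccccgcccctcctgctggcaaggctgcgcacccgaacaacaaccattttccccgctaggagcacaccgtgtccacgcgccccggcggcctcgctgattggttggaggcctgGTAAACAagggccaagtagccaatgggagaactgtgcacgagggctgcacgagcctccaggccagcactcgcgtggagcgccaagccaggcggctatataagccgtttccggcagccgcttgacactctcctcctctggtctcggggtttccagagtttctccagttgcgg
The motif starts 227 bases before the start site in *Bcl2l11* and 121 before it in *Txnip*. A match is a description of these letters, and nothing was measured here about binding.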

How the data were processed

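Total RNA from cochlear tissues of 3 WT and 3 *Cmah*-null mice was labelled and hybridized to Illumina MouseRef-8 v2 BeadChips. The raw intensity values deposited by the authors are average bead signals per probe on a linear scale, without normalization. The detection p-value of each probe, per the file headers, compares it with the negative controls of its array, and the deposited table also gives the number of beads, whose median per array was 32 to 39. The log2 values deposited by the authors equalled quantile-normalized log2 signals to within 0.00076. Software versions were not given in the sources used here. Column names of the second group read "old" where the sample records read *Cmah*-null, and columns were matched by group and replicate number. Another 18 per-sample columns (bead errors and repeated signals and detection values) were not used, nor were the authors' columns with group means and SDs, fold change, LPE statistic and adjusted p-value.

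For the comparison, limma (version 3.58.1, R 4.3.3) fitted the log2 values of all 25697 probes by genotype alone, and its moderated two-sided p-values were adjusted over the whole array by the Benjamini-Hochberg method, with a threshold of 0.05. The script was tested on simulated data. A probe counted as detected at a detection p under 0.05. No fold is given where a group held no detected array. Genes of the lists were read by the brightest probe and counted if detected on all arrays of a group. The members and lists were chosen with earlier results of these data known, and lists are described by counts and medians without a test. Named were all members, list genes with an unadjusted p under 0.05, and in each list the 2 detected genes with the largest difference. *Sirt1*, *Fbxo32*, *Pdk4* and *Txnip* were named after their values were seen. Some genes of the lists enter the counts and medians but are not reported by name here. In the lists, 6 genes were matched by an older symbol. Alternatives were neqc (offset 16), median scaling, a filter on detection, the replicate number or the number of beads as a block, a robust variance prior that follows the signal, a test per probe without pooled variance, averaging *Cmah*-null replicates 1 and 2, and leaving out each array. The number of arrays limits the precision. Plots were made in Python 3.11.15 (matplotlib 3.10.9).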

Additional observations from a re-analysis of the deposited data

How the results depend on the processing

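No member probe and no gene of the lists had an adjusted p under 0.05 in limma under any alternative. *Foxo1* stayed higher in *Cmah*-null samples in all alternatives, with log2 differences from 0.59 to 1.20, and its smallest adjusted p was 0.0961, with median scaling. At an unadjusted p under 0.05, the 1 member probe that was higher became 3 with median scaling and 3 with the bead number block, and 1 to 2 after leaving out any array. Over the whole array, the 2199 probes at that threshold, in both directions together, became 3494 with median scaling and 4540 with the bead number block. After leaving out any array they were 1233 to 3342. Among member probes whose groups did not overlap, the 2 higher became 2 to 4 and the 1 lower 1 to 3 after leaving out any array, where fewer arrays make separation easier by construction, and the 1 lower became 0 with the detection filter, which drops *Foxo3*. Of the 75 detected genes in the lists, the 7 higher became 26 with median scaling, 17 with the bead number block, 4 with a robust variance prior that follows the signal, 4 with the ordinary test, and 4 to 9 after leaving out any array. These counts are best read against the share of all detected genes in the same direction. Among the alternatives that share is given above for median scaling and without *Cmah*-null replicate 3. For the others it was not counted, so their counts cannot be called particular to the lists. With that prior 2037 probes of the array passed and with the ordinary test 1961, in both directions together. The 7 lower became 0 with median scaling, 4 with that prior, 4 with the ordinary test, and 5 to 14 after leaving out any array. The cause of these changes was not tested.

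The direction of *Igf1* turned with median scaling (0.03) and without *Cmah*-null replicate 3 (0.07, with -0.49 to 0.07 over the arrays left out). *Igf1r* turned with the bead number block (0.02), with *Cmah*-null replicates 1 and 2 averaged (0.05), without WT replicate 1 (0.01) and without *Cmah*-null replicate 1 (0.12, with -0.28 to 0.12 over the arrays left out). *Ptpn1* turned without *Cmah*-null replicate 3 (-0.19, with -0.19 to 0.92 over the arrays left out) and *Eif4ebp1* with median scaling (0.15, or -0.15 against the median of all detected genes).

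The shared replicate numbers showed no sign of pairing the samples. Deviations of same-numbered samples from their group means correlated at 0.03, -0.18 and 0.03, and not every sample correlated best with its own number. *Cmah*-null replicates 1 and 2 lay so close (SD of the log2 difference 0.13) that this check can hardly tell them apart, so a pairing is not excluded. With the replicate number as a block, 2 member probes were higher at an unadjusted p under 0.05, and 14 genes of the lists were higher and 8 lower. Over the whole array 2126 probes, detected or not, passed with that block, in both directions together, beside 2199 without it. The share of all detected genes that were higher with that block was not counted, so the 14 cannot be read against it. No probe of the array had an adjusted p under 0.05 under the alternatives, apart from 3 with the bead number block, none of them a member or a gene of the lists.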
